A study of Mus musculus with 12 samples.

Results

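The ovarian surface epithelium is the thin layer of mesothelial cells that covers the ovary, and it was followed here through 9 marker genes: Msln, Muc16, Krt7, Krt8, Krt18, Krt19, Upk1b, Upk3b and Wt1. A gene was read from every probe whose platform annotation names that gene alone. By that rule 8 of the 9 genes had a probe, and they had 10 probes of the 36227 on the array, since Upk1b and Wt1 have 2 each. All 10 probes passed the filter on dim signals. Krt18 has no probe that names it alone, so no value is given for it.

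Whole ovaries were measured on one-colour CodeLink arrays, with 1 ovary and 1 array per mouse and 3 mice in each of 4 groups. LY mice carry the lethal yellow allele of agouti over the nonagouti allele (Ay/a), and black mice are a/a littermates. The strain is C57BL/6J in the study's text, which the sample labels spell C56BL/6J. Mice of each genotype were 90 or 180 days old. All 12 mice were females that had received the GnRH antagonist Antide (10 μg/g on days 1 and 4) and then equine chorionic gonadotropin (eCG, 1 IU per 5 g body weight), and ovaries were collected on day 7, 36 h after eCG. The lethal yellow allele drives agouti in nearly all tissues, so LY ovaries express agouti themselves as well as coming from mice that become obese. The 180-day old mice were run first and the 90-day old mice later, as another set of arrays, so the effects of age and of the array set cannot be told apart. The study asked whether obesity alters ovarian gene expression, and it compared LY with black mice at an age when LY mice are obese (180 days) and at an age when body weights are alike (90 days).

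The surface epithelium is continuous with the mesothelium that lines the peritoneal cavity, and it is torn at each ovulation and closes over the wound. Its cells keep features of both an epithelium and a mesothelium: they build their cytoskeleton from simple keratins, carry the glycoproteins mesothelin and mucin 16 at their surface together with uroplakins, and contain the transcription factor Wt1. Several of these genes are not confined to the layer. Wt1 is also expressed in granulosa cells and stroma, and simple keratins are found in oviduct epithelium and other simple epithelia. In a whole ovary, fewer cells of a type and less RNA per cell cannot be told apart.

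The start of each gene is shown because most members had estimates of the same direction in 90-day old LY mice, as described below. RefSeq (build GRCm38.p6) gave 5 of the 9 members a promoter, and the 250 bases before the start of the 4 that were measured are printed 5′ to 3′ on the strand of the gene. Capitals mark matches on either strand to the motifs searched: the TATA box (TATAAA), the GC box (GGGCGG), the CCAAT box (CCAAT), an E-box (CAGGTG) and a WT1 and EGR site (GCGGGGGCG).
Muc16 (chr9:18674604-18674853, minus strand): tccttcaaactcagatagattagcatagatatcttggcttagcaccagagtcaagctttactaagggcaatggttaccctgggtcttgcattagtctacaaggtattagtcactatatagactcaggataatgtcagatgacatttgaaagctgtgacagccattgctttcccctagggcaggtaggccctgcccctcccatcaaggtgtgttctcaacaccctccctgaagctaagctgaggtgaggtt
Krt7 (chr15:101412153-101412402, plus strand): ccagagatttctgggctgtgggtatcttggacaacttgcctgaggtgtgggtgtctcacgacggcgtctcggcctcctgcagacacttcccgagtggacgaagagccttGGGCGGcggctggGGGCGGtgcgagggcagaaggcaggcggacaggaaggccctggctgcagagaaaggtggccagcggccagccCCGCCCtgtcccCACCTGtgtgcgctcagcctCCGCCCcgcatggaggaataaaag
Krt8 (chr15:102004343-102004592, minus strand): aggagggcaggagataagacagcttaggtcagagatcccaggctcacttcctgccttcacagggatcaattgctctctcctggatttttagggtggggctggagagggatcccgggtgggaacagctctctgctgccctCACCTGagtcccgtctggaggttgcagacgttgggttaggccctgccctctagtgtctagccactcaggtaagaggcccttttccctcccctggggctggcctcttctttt
Upk3b (chr5:136038246-136038495, plus strand): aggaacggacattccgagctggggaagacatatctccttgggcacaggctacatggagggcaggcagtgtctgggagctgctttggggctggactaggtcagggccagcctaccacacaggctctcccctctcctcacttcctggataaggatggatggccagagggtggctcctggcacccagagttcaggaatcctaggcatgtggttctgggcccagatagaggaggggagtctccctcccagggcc
The Krt7 window held 4 GC boxes and 1 E-box, the Krt8 window 1 E-box, and the Muc16 and Upk3b windows none of the motifs. A GC box is found in 32.7% of the 32851 promoter windows of this length, the E-box in 17.2%, the CCAAT box in 33.8%, the TATA box in 12.4% and the WT1 and EGR site in 2.57%. GC content was 66.0% for Krt7, 60.8% for Upk3b, 58.0% for Krt8 and 46.4% for Muc16, against a median of 52.4% over all windows. No motif was shared by the 4 windows, and a match is a description of the letters only.

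Values are relative intensity units, which the authors scaled to the middle of each slide and which were divided here by the array's median, so that 1 unit is the level of the middle probe. The study took 0.2 units as the limit of sensitivity. Units of single genes were compared between arrays for one and the same probe, never between probes. Summed levels of a list add different probes, so bright probes weigh most in them. Agouti itself fitted the genotype label on every array: black mice had 0.169 to 0.368 units and LY mice 95.7 to 111. Between 80.8% and 83.3% of the probes on an array were at or above the limit of sensitivity. Log2 values of arrays of the same group correlated at r = 0.970 to 0.987, those of the other genotype at the same age at 0.962 to 0.984, and those of the other age at 0.918 to 0.938. Differences below are limma estimates on the log2 scale, LY minus black, with Benjamini-Hochberg adjustment over 31359 probes. With the exception of Upk3b, every member lay above the limit of sensitivity on all 12 arrays, so the marker set was measurable in these ovaries.

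Msln encodes mesothelin, a glycoprotein anchored to the surface of mesothelial cells. In 90-day old mice its probe gave 0.892, 0.692 and 0.605 units in black ovaries and 0.454, 0.337 and 0.430 in LY ovaries. In 180-day old mice it gave 0.491, 0.362 and 0.342 units in black and 0.347, 0.328 and 0.400 in LY ovaries. The 90-day black group stood above every array of the other groups, which overlapped one another. At 90 days the means were 0.730 ± 0.147 and 0.407 ± 0.0616 units (SD, n = 3 mice each), and the log2 difference was -0.83 (standard error 0.18, adjusted p = 0.113 from limma), which did not pass the threshold of 0.05. At 180 days the log2 difference was -0.14 (standard error 0.18, adjusted p = 0.807), with a 95% interval from -0.55 to 0.27.

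Muc16 encodes mucin 16, the large transmembrane mucin that carries the CA125 epitope and binds mesothelin. Black ovaries of 90-day old mice had 4.09, 4.29 and 3.30 units and LY ovaries 2.43, 1.90 and 2.09. At 180 days the black arrays read 2.55, 2.72 and 3.38 units and the LY arrays 3.07, 3.54 and 2.07. The genotypes were apart at 90 days and overlapped at 180 days, where the third LY array was the lowest of the 6 and another LY array the highest. The log2 difference at 90 days was -0.86 (standard error 0.20, adjusted p = 0.124 from limma), between means of 3.89 ± 0.520 and 2.14 ± 0.270 units (SD, n = 3 mice each). In 180-day old mice it was -0.021 (standard error 0.20, adjusted p = 0.977), and its sign turned to 0.20 without the third LY array.

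Krt7, Krt8 and Krt19 encode keratins of simple epithelia, Krt8 being a type II keratin that pairs with type I keratins such as Krt18 and Krt19. For Krt7 the 90-day black arrays had 16.1, 14.4 and 10.1 units and the LY arrays 8.54, 8.67 and 8.94. The 180-day black arrays had 11.2, 12.1 and 12.5 units and the LY arrays 12.1, 11.8 and 11.1. The 90-day LY ovaries thus formed a narrow group below all 9 other arrays, and the 90-day black ovaries were the most spread. The log2 difference at 90 days was -0.61 (standard error 0.15, adjusted p = 0.135 from limma), and at 180 days -0.038 (standard error 0.15, adjusted p = 0.944). Without the third 90-day black array, which was the lowest of its group, the 90-day difference was -0.81 and passed the threshold (adjusted p = 0.0338 from limma). This was the only member and the only single left-out array for which a genotype difference passed.

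Krt8 was the member whose level differed most with age. Its probe read 1.66, 2.00 and 1.66 units in 90-day black ovaries and 1.03, 1.35 and 1.39 in LY ovaries of that age. At 180 days it read 0.567, 0.630 and 0.584 units in black and 0.505, 0.504 and 0.426 in LY ovaries. The 4 groups followed the order 90-day black, 90-day LY, 180-day black and 180-day LY, and no neighbours in that order overlapped. LY ovaries differed from black by -0.50 at 90 days (standard error 0.13, adjusted p = 0.166 from limma) and by -0.31 at 180 days (standard error 0.13, adjusted p = 0.388). Among the brightest probes of the members it was the only one with no overlap between the genotypes at both ages.

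Krt19 encodes the smallest of the keratins. The black ovaries had 7.48, 7.77 and 5.64 units at 90 days and 8.48, 9.09 and 9.27 at 180 days. The LY ovaries had 4.00, 4.14 and 4.73 units at 90 days and 7.93, 8.75 and 5.68 at 180 days. As with Krt7, the 90-day LY group lay below every other array, and the third 180-day LY array was far below its own group. The log2 difference was -0.69 at 90 days (standard error 0.17, adjusted p = 0.138 from limma) and -0.29 at 180 days (standard error 0.17, adjusted p = 0.538), the latter -0.10 without that array.

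**Figure D1:**
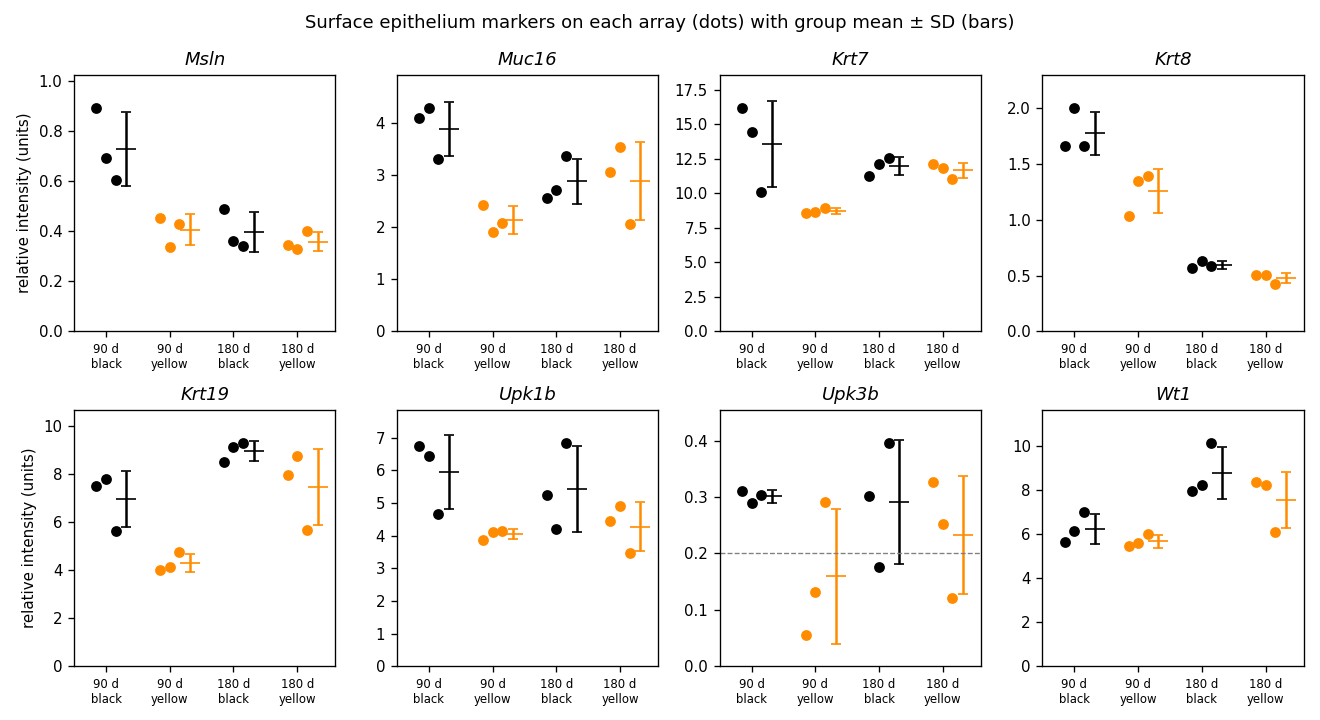
Relative intensity of each marker, read from its brightest probe, on the 12 arrays by age and genotype, with black mice in black, LY mice in orange, the group mean with its SD (n = 3 mice) beside the dots and a dashed line at 0.2 units, the limit of sensitivity, in the Upk3b panel. The 90-day LY dots lie below all 90-day black dots for Msln, Muc16, Krt7, Krt8, Krt19 and Upk1b, and the Krt8 dots of 180-day old mice stay at or below 0.630 units.

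Upk1b and Upk3b encode uroplakins, membrane proteins first known from the plaques of the bladder lining. The brighter Upk1b probe read 6.76, 6.44 and 4.67 units in 90-day black ovaries and 3.88, 4.12 and 4.16 in LY ovaries of that age. In 180-day old mice it read 5.24, 4.21 and 6.84 units in black and 4.44, 4.92 and 3.46 in LY ovaries. The genotypes were apart at 90 days and overlapped at 180 days. The log2 differences were -0.54 (standard error 0.20, adjusted p = 0.289 from limma) and -0.33 (standard error 0.20, adjusted p = 0.547). The second Upk1b probe, designed to an expressed sequence tag, gave a different picture. It lay between 3.44 and 4.82 units on all 12 arrays, its groups overlapped, and its log2 difference was -0.037 at 90 days (standard error 0.14, adjusted p = 0.944), or 0.027 after quantile normalization, and 0.16 at 180 days (standard error 0.14, adjusted p = 0.701).

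Upk3b was the only member with arrays under the limit of sensitivity. It read 0.311, 0.289 and 0.304 units in 90-day black and 0.0562, 0.132 and 0.291 in 90-day LY ovaries. At 180 days it read 0.302, 0.176 and 0.396 units in black and 0.327, 0.252 and 0.120 in LY ovaries. Low readings occurred in both genotypes, and 4 of the 12 arrays were under that limit, of which 2 belonged to 90-day LY mice. The log2 difference at 90 days was -1.22 (standard error 0.55, adjusted p = 0.375 from limma, 95% interval -2.44 to -0.0089). Its size rests on those 2 readings, and it was -0.41 with readings under 0.2 units set to 0.2 (adjusted p = 0.508). The older mice gave -0.36 (standard error 0.55, adjusted p = 0.836).

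Wt1 encodes the Wilms tumour zinc finger transcription factor. Its brighter probe gave 5.64, 6.11 and 6.98 units in 90-day black ovaries and 5.44, 5.57 and 6.00 in LY ovaries of that age. In the older mice it gave 7.95, 8.23 and 10.1 units in black and 8.34, 8.21 and 6.10 in LY ovaries. The genotypes overlapped at both ages, and the older ovaries of each genotype lay above the younger ones. The log2 difference was -0.13 at 90 days (standard error 0.14, adjusted p = 0.738 from limma, 95% interval -0.45 to 0.18), the smallest of the 8 members, and -0.22 at 180 days (standard error 0.14, adjusted p = 0.579). The second Wt1 probe gave -0.16 at 90 days (standard error 0.14, adjusted p = 0.650) and -0.12 at 180 days (standard error 0.14, adjusted p = 0.760). At 180 days the second probe read 0.851, 0.880 and 0.867 units in black and 0.770, 0.803 and 0.809 in LY ovaries, so on this probe the genotypes did not overlap.

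Across the 8 members at 90 days, the limma estimate was negative for 8, the 3 LY arrays lay below the 3 black arrays for 6 (Msln, Muc16, Krt7, Krt8, Krt19 and the brighter Upk1b probe), and the median log2 difference was -0.65, against -0.0039 over all probes tested. Of all probes, 50.9% had a negative estimate and 9.56% were lower in LY mice with no overlap. The members were chosen with earlier results of these data known, so counts above these shares are a description and not independent support. No member passed limma's threshold over all probes, where 0.0446% of the probes passed. At an unadjusted p under 0.05 limma had 7 members lower in LY mice, which 8.06% of all probes were. These 7 include Upk3b, whose 90-day LY mean was under the limit of sensitivity. The count was 6 with readings under 0.2 units set to 0.2 (4035 of 31359 probes in either direction). With the replicate number as a block it was 5 (3743 of 31359 probes). The methods' t-test also called 0 after adjustment. Before adjustment it had 6 members under 0.05, and 2798 of 31354 probes in either direction. The median stayed between -0.82 and -0.58 when each array was left out in turn.

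At 180 days the estimates were again negative for 8 members, but smaller: the median was -0.25, against 0.029 over all probes tested, and 44.1% of all probes had a negative estimate. Among the brightest probes of the members, that of Krt8 alone was lower in every LY ovary than in every black ovary, as were 8.36% of probes, and it was the only one at an unadjusted p under 0.05, where 4.91% of probes were lower. Again no member passed limma's adjusted threshold (0.0446% of probes did). The methods' t-test called 0, and before adjustment it had 1 member under 0.05, and 4202 of 31358 probes in either direction. These 180-day estimates moved when single arrays were left out. Without the third LY array 6 estimates were negative with a median of -0.089, without the third black array 7 with a median of -0.13, and without the first black array 7 with a median of -0.29. In each of these fits 0 members were under an unadjusted p of 0.05.

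**Figure D2:**
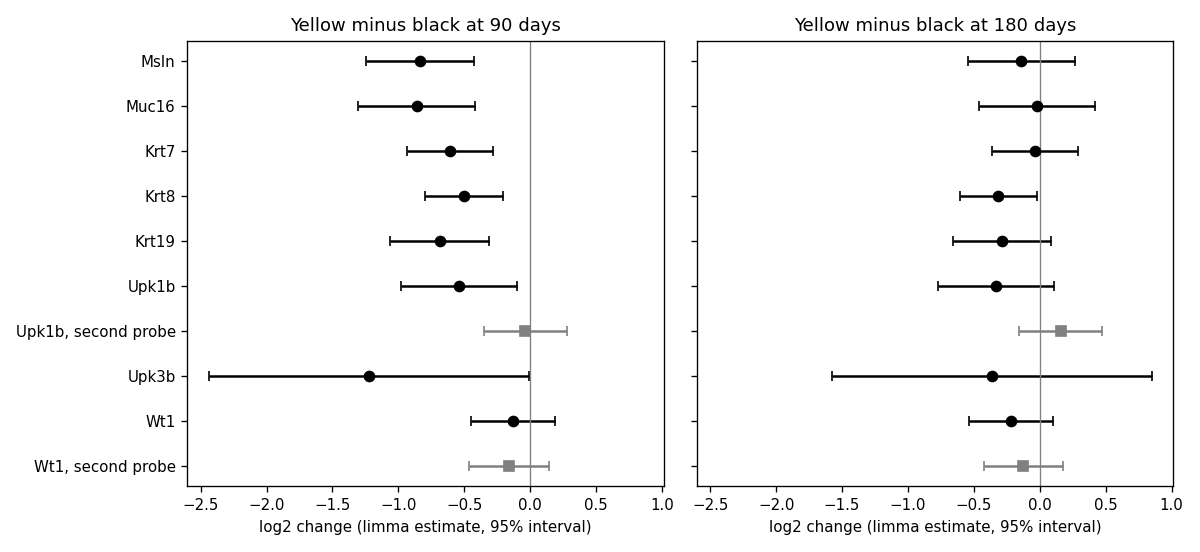
Log2 difference between LY and black ovaries (limma estimate, bars are 95% intervals, 3 arrays per group) for each marker at 90 days (left) and at 180 days (right), with the second probes of Upk1b and Wt1 in grey. At 90 days the intervals of 7 brighter probes lie below 0 before adjustment, and at 180 days that of Krt8 alone does.

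The test of the difference between the ages, the genotype difference at 180 days minus that at 90 days, had 0 members past limma's adjusted threshold, as it had 0.00% of all probes. Its estimates were 0.84 for Muc16 (standard error 0.28, adjusted p = 0.259), 0.69 for Msln (standard error 0.26, adjusted p = 0.313) and 0.57 for Krt7 (standard error 0.21, adjusted p = 0.298). These were the 3 members with an unadjusted p under 0.05, which 12.1% of all probes had. Krt8 (0.19, adjusted p = 0.736), Upk1b (0.21, adjusted p = 0.819) and Wt1 (-0.088, adjusted p = 0.904) had small estimates, while Krt19 (0.40, adjusted p = 0.542) and Upk3b (0.86, adjusted p = 0.707) lay between or were imprecise. That the genotype difference was smaller in older mice was therefore not established for any member.

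Single ovaries varied within their groups. On each of the 3 90-day LY arrays all 8 members lay below the mean of 90-day black mice, by a mean log2 value of -0.84, -0.72 and -0.46. Of the 90-day black arrays, the third averaged -0.18 and the others 0.10 and 0.076. Among the 180-day LY arrays the third averaged -0.50, while the first and second averaged -0.069 and -0.071. Of the 8 members, 5 lay below the black mean on the first of these arrays, 7 on the second and 7 on the third. The third 180-day LY array and the third 90-day black array were thus the lowest of their groups for these genes. With both left out, the members at 90 days had a median of -0.82, 0 passed limma's threshold (smallest adjusted p = 0.0527), and the median at 180 days was -0.089.

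**Figure D3:**
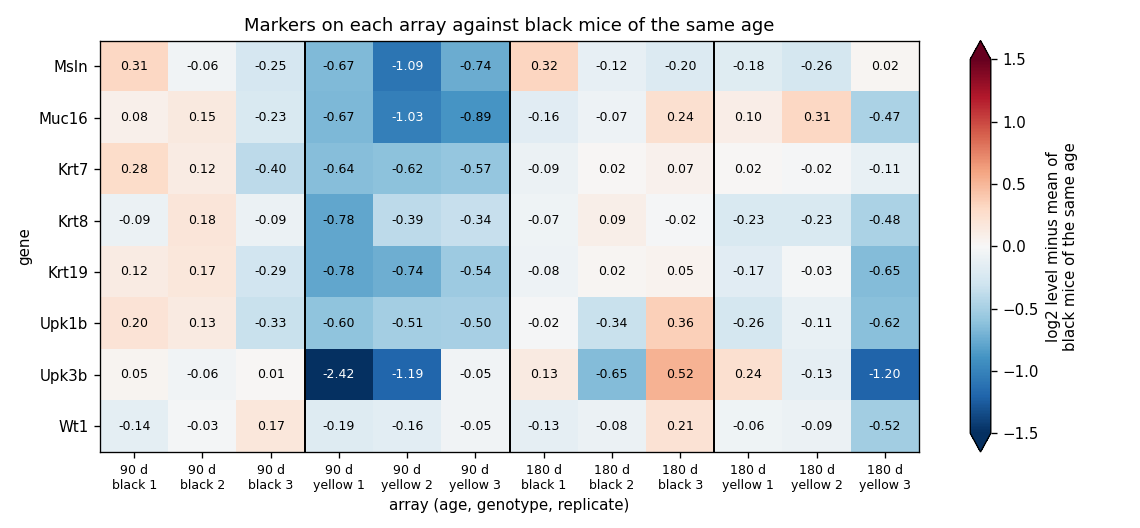
Log2 level of each marker (rows) on each array (columns) minus the mean of the 3 black arrays of the same age, from blue (lower) to red (higher). The 3 columns of 90-day LY mice are below 0 for every marker, and in the 180-day LY mice the third column is the lowest for every marker but Msln.

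Between the ages the members did not move as a set. In black mice, Msln was lower at 180 than at 90 days (log2 difference -0.87, standard error 0.18, adjusted p = 0.00290 from limma), Krt8 was lower (-1.57, standard error 0.13, adjusted p = 6.71e-06) and Wt1 was higher (0.49, standard error 0.14, adjusted p = 0.0175). In LY mice, Krt8 was lower (-1.38, standard error 0.13, adjusted p = 1.60e-05), while Krt19 (0.78, standard error 0.17, adjusted p = 0.00350), Krt7 (0.42, standard error 0.15, adjusted p = 0.0377) and Wt1 (0.40, standard error 0.14, adjusted p = 0.0415) were higher. Both Wt1 probes were higher in older mice of both genotypes, the dimmer by 0.77 in black mice (adjusted p = 0.000942 from limma) and by 0.81 in LY mice (adjusted p = 0.000691). Krt8 was thus lower and Wt1 higher at 180 days in both genotypes. Of 23 alternatives, the call of the brighter Wt1 probe in LY mice was lost in 13, that of Krt7 in LY mice in 9, that of the brighter Wt1 probe in black mice in 3 and that of Msln in black mice in 1. The counts of 3 members in black and 4 in LY mice stand beside 46.8% and 47.2% of all probes that passed in the same comparisons, so they are near the background, and the array sets differ in the same way as the ages. Both age comparisons share their groups with the genotype comparisons.

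Other mesothelial and surface epithelial genes had medians nearer to 0 than the members. Of 11 listed, 10 were tested and 0 passed limma's threshold at either age. At 90 days 8 estimates were negative with a median of -0.12, and at 180 days 3 were, with a median of 0.12. Rspo1, a secreted activator of Wnt signalling, had 17.2, 19.1 and 19.7 units in 90-day black and 15.2, 15.2 and 16.2 in 90-day LY ovaries. It was the 1 gene of the 10 that was lower with no overlap at that age, against 9.56% of all probes, at a log2 difference of -0.26 (standard error 0.088, adjusted p = 0.249 from limma). Nkain4, which encodes a protein that interacts with the sodium pump, went the other way at 180 days, with 1.62, 1.93 and 1.29 units in black and 2.52, 2.61 and 2.66 in LY ovaries. Its log2 difference there was 0.70 (standard error 0.22, adjusted p = 0.263), and it was -0.33 at 90 days (standard error 0.22, adjusted p = 0.556). Nkain4 and Aldh1a1, a retinaldehyde dehydrogenase (0.15 at 180 days, standard error 0.11, adjusted p = 0.621), were the 2 genes of the list that were higher with no overlap at 180 days, as were 14.2% of all probes. The keratins other than the members, of which 8 were tested, had a median of -0.0003 at 90 days and 0.026 at 180 days, and 8 other uroplakins and transmembrane mucins had 0.0009 and 0.22. In neither list did a gene pass limma's threshold. The smallest p-values there came at 180 days, from the basal keratins Krt14 (log2 difference 0.22, standard error 0.11, adjusted p = 0.450) and Krt5 (0.33, standard error 0.17, adjusted p = 0.485) and from the transmembrane mucins Muc1 (0.48, standard error 0.14, adjusted p = 0.226) and Muc15 (0.38, standard error 0.11, adjusted p = 0.252).

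Genes of epithelial junctions and identity had mostly negative estimates, as the members had. Of 19 genes tested, 14 had a negative estimate at 90 days and 16 at 180 days, with medians of -0.34 and -0.10, and 0 passed limma's threshold at either age. At 90 days 5 of the 19 were lower in every LY ovary than in every black ovary, against 9.56% of all probes. They are named here after their values were seen: the tight junction genes Cldn3 (log2 difference -0.59, standard error 0.13, adjusted p = 0.113) and Ocln (-0.43, standard error 0.14, adjusted p = 0.229), the desmosomal cadherin Dsc2 (-0.97, standard error 0.29, adjusted p = 0.205), the epithelial transcription factor Elf3 (-0.93, standard error 0.22, adjusted p = 0.129) and the protease inhibitor Spint1 (-0.54, standard error 0.13, adjusted p = 0.146). Cldn3 had 2.54, 2.73 and 2.16 units in 90-day black and 1.55, 1.85 and 1.53 in 90-day LY ovaries. Elf3 had 0.494, 0.369 and 0.319 units in 90-day black and 0.229, 0.214 and 0.171 in 90-day LY ovaries. The last of these was under the limit of sensitivity and the other LY values close to it, so the size of its difference is uncertain. At 180 days Dsc2, Elf3 and Prss8, a membrane-anchored protease with the smallest p of the list at that age (adjusted p = 0.144 from limma), were under the limit of sensitivity on all 3 LY arrays, so no size is given for their difference there. In all, 4 of the 19 were lower with no overlap at 180 days, against 8.36% of all probes. They were Dsc2, Elf3 and Prss8, near or under the limit of sensitivity, and Epcam, which was well above it. Epcam had 4.24, 4.07 and 4.41 units in 180-day black and 3.21, 3.19 and 2.35 in 180-day LY ovaries. Elf3 had 0.185 units on both its lowest black and its highest LY array. Another 1 of the 19 (Grhl2, an epithelial transcription factor) was higher with no overlap, against 14.2%. The summed level of the 19 genes ranged from 51.0 to 60.9 units in 90-day black and from 42.6 to 50.2 in 90-day LY ovaries, and from 54.2 to 60.2 and 41.4 to 52.4 at 180 days. The summed level of the 8 members ranged from 33.3 to 43.0 and from 25.8 to 28.03 units at 90 days, and from 36.8 to 43.4 and 29.3 to 38.3 at 180 days. Krt7, Krt19, Wt1 and Upk1b, the brightest members, made up most of the member sum. The junction sums of the genotypes were apart at both ages and those of the members at 90 days. Sums of other lists were apart too, in both directions. At 180 days other mesothelial and surface epithelial sums were higher in LY (245.8 to 268.2 in black, 270.6 to 302.3 in LY). Those of other uroplakins and mucins were also higher (12.27 to 13.37, and 13.39 to 14.47). Oocyte (41.7 to 56.0, and 25.1 to 38.6) and granulosa sums (92.7 to 119.7, and 61.9 to 91.6) were lower. At 90 days the mesothelial sums overlapped. The protease inhibitor Spint2 made up a large part of the junction sum, with 22.8 to 37.6 units over the 12 arrays, and its own values overlapped between the genotypes at both ages.

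**Figure D4:**
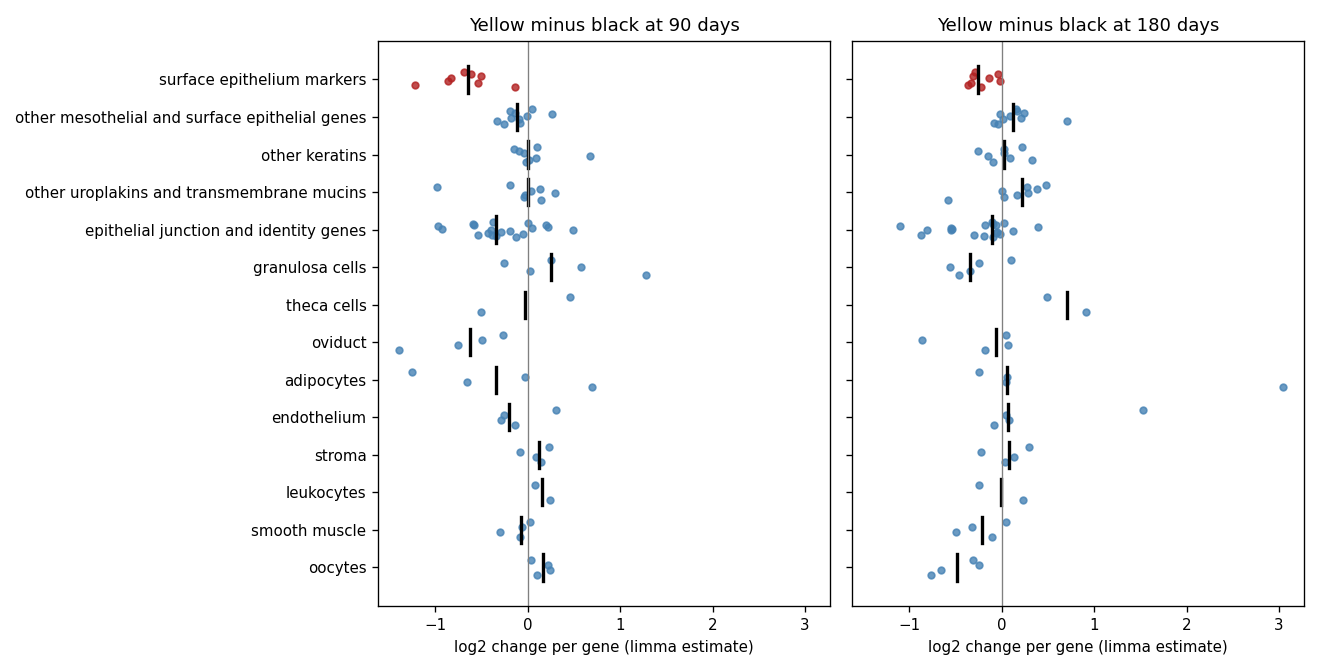
Log2 difference between LY and black ovaries (limma estimate) for each gene of the markers (red) and of 13 other gene lists (blue) at 90 days (left) and 180 days (right), with a vertical bar at the median of each list. The markers and the oviduct genes have the lowest medians at 90 days, -0.65 and -0.62 (the latter counting Foxj1, which was under the limit of sensitivity on all 6 arrays of that age), while granulosa genes have a median of 0.25.

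Markers of 9 other cell types that a whole ovary or adhering tissue could hold were read in the same way, and 0 of their genes passed limma's threshold in either genotype comparison. Of the 5 oviduct genes 4 were tested, 4 had a negative estimate at 90 days, and the median was -0.62. Of these 4, Ovgp1 alone was lower with no overlap, as were 9.56% of all probes. Foxj1, a transcription factor of ciliated cells, was under the limit of sensitivity on all 6 arrays of 90-day old mice. It passed the filter only through the first 180-day black array (2.77 units). The median of the other 3 tested genes was -0.75, the estimate of Ovgp1 itself. Ovgp1, the oviduct-specific glycoprotein, had 3.73, 4.76 and 5.69 units in 90-day black and 2.53, 2.96 and 2.84 in 90-day LY ovaries (log2 difference -0.75, standard error 0.14, adjusted p = 0.0836 from limma). Over both genotypes at 180 days it ranged from 1.47 to 1.69 units. Tekt1, a protein of motile cilia, was under the limit of sensitivity on 2 of the 3 LY arrays at 90 days (0.594, 0.177 and 0.0726 units), so no size is given for its difference. Dnah5 overlapped, with 0.289, 0.487 and 0.799 units in 90-day black and 0.574, 0.363 and 0.306 in 90-day LY ovaries. Pax8, a transcription factor of oviduct epithelium, was under the limit of sensitivity in the mean of every group. The oviduct sum was taken over Ovgp1, Pax8, Dnah5 and Tekt1, the 4 genes without a missing value, and Ovgp1 made up most of it. This sum ranged from 4.45 to 7.21 units in 90-day black, 3.29 to 3.80 in 90-day LY, 2.21 to 2.61 in 180-day black and 2.11 to 2.48 in 180-day LY ovaries. The part of oviduct tissue in the 90-day difference of the members was not tested.

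The other cell types did not share one direction at 90 days. The median log2 difference was 0.25 for granulosa cells (5 genes tested), 0.16 for oocytes (4), 0.16 for leukocytes (2), 0.12 for stroma (4), -0.025 for theca cells (2), -0.070 for smooth muscle (4), -0.20 for endothelium (4) and -0.35 for adipocytes (4). Adipocyte genes varied widely between ovaries, with sums from 12.4 to 57.1 units in 90-day black and from 9.41 to 37.2 in 90-day LY mice, and these ranges overlapped. At 180 days oocyte genes had a median of -0.48, granulosa genes -0.34 and theca genes 0.70. The part of these cell types in the members' values was not tested.

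Within groups, the members were in part high or low on the same arrays. After subtracting each group's mean, Pearson's r between pairs of members over the 12 arrays had a median of 0.39 over 28 pairs, 22 of them positive and 12 over 0.5. It was highest for Muc16 with Krt19 (0.81) and lowest for Msln with Wt1 (-0.65). Krt19 followed the mean of the other 7 members most closely (r = 0.91), then Upk1b (0.80) and Muc16 (0.69), while Msln did not (-0.22). Without the third 180-day LY array and the third 90-day black array, the median over pairs was 0.28 with 17 of 28 positive, and the 6 pairs among Muc16, Krt7, Krt19 and Upk1b, which had 0.51 to 0.81 over all arrays, had 0.21 to 0.51. The highest pair was then Upk1b with Wt1 (0.71) and the lowest Msln with Krt8 (-0.59). These values describe 12 arrays that share their scaling, and no test was made of them.

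**Figure D5:**
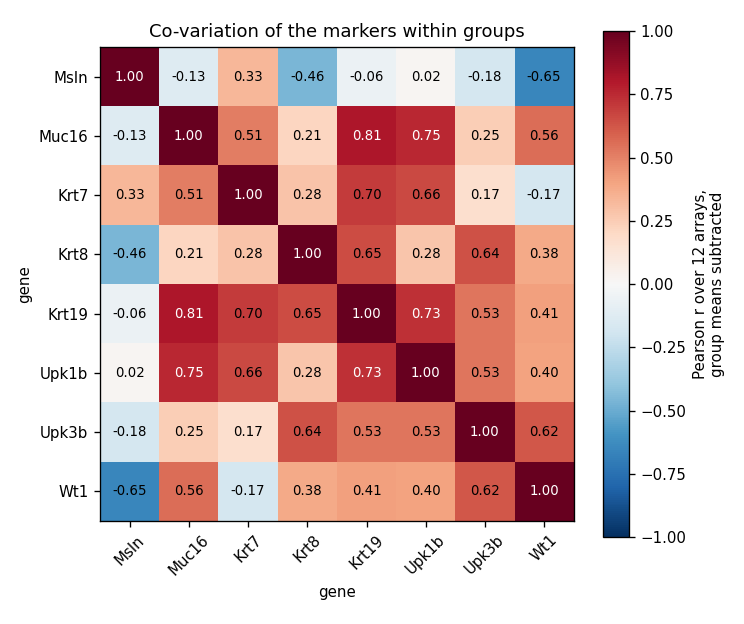
Pearson's r between each pair of markers over the 12 arrays after subtracting group means, from blue (-1) to red (1). Pairs among Muc16, Krt7, Krt19 and Upk1b have 0.51 to 0.81 over the 12 arrays, or 0.21 to 0.51 without the 2 arrays named in the text, and the Msln row is mostly near or below 0.

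Outside the members, the genes most like their mean within-group deviation over the 12 arrays were Mtus1 (r = 0.986), Fez1 (0.964), Prss12 (0.958), Ankrd17 (0.943), Mip (0.940), Unc45b (0.936), Dtd1 (0.935), Cacna1c (0.924), Insyn1 (0.922) and Rasl11b (0.918). They were the highest among tested probes with 1 gene symbol and a value on all 12 arrays. Each gene was taken at its probe with the highest r, so high values were bound to be found. Without the 2 arrays named above, the 10 genes ranged from 0.699 (Insyn1) to 0.949 (Mtus1). In the genotype comparison at 90 days Mtus1 had a log2 difference of -0.11 (adjusted p = 0.817 from limma) and Mip 0.54 (adjusted p = 0.515).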

How the data were processed

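Total RNA of 1 ovary per mouse was labelled and hybridised to CodeLink Whole Mouse Genome arrays, 1 mouse per array, so replicates are separate mice. After scanning with GenePix, the authors subtracted background in the CodeLink software and set the middle of each slide to a common level in GeneSpring. What they deposited is intensity on a linear scale, in relative units. A second step of their methods, which sets every gene against its own median, is not seen in these values. Array medians were 1.00 units in 180-day and 1.04 in 90-day old mice. On an array, 166 to 503 probes had no value and 67 to 144 were negative. The small number of arrays limits the precision.

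Here the values of an array were divided by their median, a floor of 0.01 units was set, and the log2 was taken. A probe was tested if its mean reached 0.2 units in at least 1 group and every group had a value, which left 31359 of 36227 probes. Of all probes 21615 carry 1 gene symbol, 681 several and 13931 none in the platform annotation. Symbols were updated through the RefSeq annotation of GRCm38.p6, which changed 0. A gene with several probes was read from the one with the highest mean log2 value. Group means of all 12 arrays were fitted in limma 3.58.1 (R 4.3.3) with 8 residual degrees of freedom, 5 contrasts were taken, and p-values were adjusted by Benjamini-Hochberg over all probes tested, with a threshold of 0.05. The procedure was tested on simulated data. Genes were named from the other lists for the smallest p in a genotype comparison or, after their values were seen, for having no overlap. Spint2 was named for its part of the junction sum, and all oviduct genes were named. The other cell types are given as medians or sums. The members and lists were chosen with earlier results of these data known. Counts of a list are given beside those of all probes, and no test was made over a list.

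Alternatives were quantile normalization, the values as deposited, a floor of 0.2 units, a pseudocount of 0.1 units, no filter, a filter on every group, a fit to the arrays of each comparison alone, an intensity trend, array quality weights, the replicate number as a block, the methods' t-test per probe, and leaving out each array in turn. Leaving out 2 arrays together was chosen after seeing the data. Promoter windows are the 250 bases before each RefSeq gene start, searched for exact motifs on both strands.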

Additional observations from a re-analysis of the deposited data

How the results depend on the processing

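No member passed the threshold in the genotype comparison at 180 days or in the interaction under any alternative run, and at 90 days 0 to 1 passed when each array was left out (Krt7, without black array 3) and 0 under the 11 other settings, with a smallest adjusted p of 0.0510 (limma with an intensity trend). All 8 members, or 7 where a filter on every group removed Upk3b, kept a negative estimate at 90 days in each of these. Over all probes the number called moved far more, from 14 at 180 days to between 0 (the methods' t-test) and 163 (array quality weights) and from 14 at 90 days to between 1 (the t-test, and the replicate block) and 200 (intensity trend), and in the interaction from 0 to as many as 198 (intensity trend). Of the probes called at 180 days 13 were higher and 1 lower, and after quantile normalization 15 and 4.

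Between the ages, the members called in black mice were 3 as reported, 1 by the methods' t-test after adjustment, 2 to 5 with each array left out and 5 without 180-day LY array 3 and 90-day black array 3 (chosen after seeing the data). In LY mice they were 4 as reported, 2 with quantile normalization, 2 with the values as deposited, 2 to 4 with each array left out and 5 without those 2 arrays. In LY mice it was Krt7 and Wt1 that fell short of the threshold with quantile normalization and with the values as deposited. The cause was not tested.

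The following estimates turned sign. The Upk1b second probe had 0.027 at 90 days with quantile normalization and -0.000517 between the ages in LY mice with array weights, and Muc16 had 0.064 at 180 days with array weights. With each array left out, LY minus black at 180 days ranged from -0.24 to 0.021 for Msln, from -0.19 to 0.20 for Muc16 and from -0.69 to 0.055 for Upk3b, and at 90 days from -0.12 to 0.087 for the Upk1b second probe. The interaction ranged from -0.17 to 0.059 for Wt1 and from -0.088 to 0.22 for its second probe. The difference between the ages ranged in black mice from -0.32 to 0.026 for Upk1b, from -0.18 to 0.026 for its second probe and from -0.38 to 0.20 for Upk3b, and in LY mice from -0.046 to 0.21 for Upk1b and from -0.0082 to 0.20 for its second probe.

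With the replicate number as a block, 0 members passed at 180 days, 0 at 90 days (smallest adjusted p = 0.263) and 0 in the interaction, and the probes called fell from 14 to 2 at 180 days and from 14 to 1 at 90 days. The labels do not say whether the numbers pair the mice. Deviations from the group means of same-numbered arrays correlated at -0.0031, -0.072 and -0.056 at 180 days and at 0.15, 0.073 and 0.051 at 90 days. No differently numbered arrays were set beside them, so these values do not decide whether mice were paired. Upk3b is limited by its signal, which was under 0.2 units on 4 of the 12 arrays.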
